A study of Mus musculus with 5 samples.

Results

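Peritubular capillary endothelium of the mouse kidney is described here as 442 cells out of 13823 droplet-captured cells that passed the quality limits. The cells were chosen by their raw UMI counts of the gate genes. A cell was taken in when it held at least 3 transcripts (unique molecular identifiers, UMIs) of the endothelial genes Emcn, Kdr, Flt1 and Egfl7 together, at least 1 UMI of Plvap, and none of Ehd3 (glomerular endothelium) or Ptprc (leukocytes). Kept cells had at least 200 detected genes and at most 50% mitochondrial UMIs. The gate genes chose the cells, so their levels are a description only. The kidneys came from C57/BL6 mice aged 8 weeks, after unilateral ureteric obstruction (UUO), a surgical block of 1 ureter that can later be released, or a sham operation. The sham group is day 0, obstruction was sampled at UUO day 2 and at UUO day 7, and the group called reversed UUO was collected 7 days after reversal on experimental day 14. Each group was a single droplet library of live cells pooled from 3 mice. A library cannot be separated from its time point, and no test between time points was possible.

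Peritubular capillaries run between the tubules, are fed by the vessels that leave the glomeruli, and take back the fluid and solutes that the tubules reabsorb. Their endothelium is thin and fenestrated, and Plvap forms the diaphragms across those fenestrae. Loss of these capillaries is a known companion of kidney fibrosis, and obstruction of the ureter is a standard way to bring fibrosis about in mice. The design asks how the cells of the kidney differ during obstruction and after its release.

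The gate held 57 of 3933 kept sham cells, 59 of 2207 at day 2, 189 of 4447 at day 7 and 137 of 3236 in the reversed library. Their median depth was 2204, 3701, 3426 and 3799 UMIs per cell in that order of libraries, which is kept throughout. Levels are CPM, the usual depth-scaled count, out of the non-mitochondrial UMIs summed over these cells, 139895, 271836, 941125 and 715914 in all. A single UMI is therefore worth 7.15, 3.68, 1.06 and 1.40 CPM, so that the sham and day 2 libraries give the least precise values. Between libraries, differences are log2 ratios of CPM plus 10, and their 95% intervals cover counting error only. The libraries shared between 16 and 39 cell barcodes per pair, and 1 barcode passed the gate in both the sham and the day 2 library.

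Near the limits of the gate, 3, 0, 9 and 5 of the cells held exactly 3 UMIs of the endothelial genes, while 2, 6, 10 and 18 cells with a sum of 2 met all other conditions. Exactly 1 Plvap UMI was found in 9, 12, 20 and 24 of the cells, and 26, 29, 47 and 50 cells lacked Plvap alone. Cells left out for a single Ehd3 UMI were 22, 11, 71 and 54, and these stand in the glomerular gate used below. A single Ptprc UMI left out 0, 2, 32 and 18 cells. Plvap did not mark these capillaries alone, since 32.5%, 34.6%, 48.8% and 52.8% of the Ehd3-positive glomerular cells also held a Plvap UMI. Ehd3 can be missed in a shallow cell, and the share of glomerular cells in the gate was not tested.

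The marker genes that the gate did not use were present in all 4 libraries. Rgcc, a regulator of the cell cycle that is abundant in capillary endothelium, stood at 658, 681, 810 and 676 CPM. Igfbp3, a secreted binding protein of insulin-like growth factors, stood at 1179, 1589, 1508 and 770 CPM. Aplnr, the receptor of the vascular peptide apelin, stood at 78.6, 58.9, 257 and 277 CPM. After each cell was thinned to 1000 UMIs, Rgcc was found in 43.9%, 27.1%, 48.1% and 47.4% of the capillary cells and in at most 2.54% of leukocytes of the same library. The 3 markers thus went with the label for the set as a whole, although none was found in every cell at that depth.

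Peritubular capillary cells made up 1.45% (95% exact interval 1.10 to 1.87) of kept sham cells, 2.67% (2.04 to 3.43) at day 2, 4.25% (3.68 to 4.88) at day 7 and 4.23% (3.57 to 4.99) after reversal. The order of these shares turned with the limit on mitochondrial UMIs: with a limit of 20% the sham share was 8.18%, above 3.70% at day 2 and 6.37% after reversal. Kept sham cells had a median of 33.7% mitochondrial UMIs, against 9.80%, 2.98% and 8.36% in the other libraries, while the capillary cells themselves had 4.53%, 3.33%, 2.59% and 3.21%. Under the limit of 20%, 53 of the 57 sham capillary cells stayed, but 648 of the 3933 kept sham cells. Among the 1289 endothelial-gated cells, whose mitochondrial share was similar in all libraries, the capillary share was 24.4% (19.0 to 30.4) of 234 in sham, 35.5% (28.3 to 43.3) of 166 at day 2, 38.7% (34.4 to 43.2) of 488 at day 7 and 34.2% (29.5 to 39.0) of 401 after reversal. On this denominator the sham interval lay below that of day 7, and the intervals of the 3 UUO libraries overlapped. Digestion and live sorting also set such shares, and their part was not tested.

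**Figure D1:**
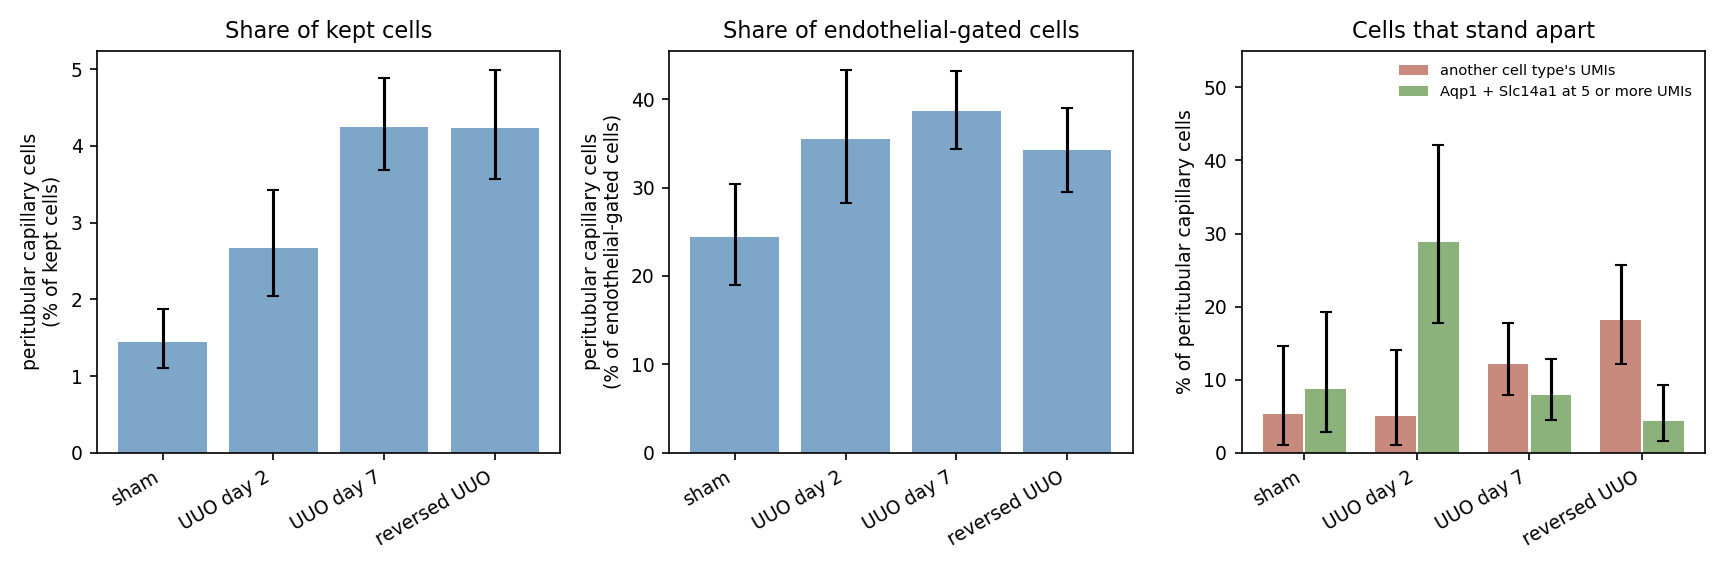
Peritubular capillary cells per library as a percent of kept cells (left) and of endothelial-gated cells (middle), and the percent of them that carry another cell type's UMIs or at least 5 UMIs of Aqp1 and Slc14a1 (right). Bars are shares with exact 95% intervals; the sham bar is the lowest on both denominators, and the vasa recta-like bar is highest at day 2 (28.8%).

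A pair of subsets stood apart within the gate. The first were barcodes that carried at least 10 UMIs of a marker list of another cell type at over 5 times the median share of their library. They numbered 3 of 57 in sham, 3 of 59 at day 2, 23 of 189 (12.2%) at day 7 and 25 of 137 (18.2%) after reversal. At day 7 their median was 14210 UMIs against 3219 in the other capillary cells, and after reversal 12334 against 3534, so that they supplied 35.1% and 39.5% of all UMIs of their libraries' sums. Most carried genes of injured tubule cells, 17 at day 7 and 14 after reversal. A doublet caller, Scrublet, marked 7 of the 23 and 9 of the 25. The limit of 10 UMIs was on raw counts, so that deep barcodes met it more easily than shallow ones. The shares of this subset are therefore not at equal depth, and its depth is partly set by the rule.

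The second subset held at least 5 UMIs of Aqp1 and Slc14a1 together, the water channel and the urea transporter of descending vasa recta, which are the arteriole-like vessels that carry blood into the medulla. They were 5 of 57 sham cells (8.77%), 17 of 59 at day 2 (28.8%, 17.8 to 42.1), 15 of 189 at day 7 (7.94%) and 6 of 137 after reversal (4.38%). Over all capillary cells Aqp1 stood at 972, 3167, 309 and 240 CPM and Slc14a1 at 243, 210, 38.3 and 8.38 CPM. These 2 genes chose the subset, so their levels without it are no finding. The day 2 interval of the subset's share lay above those of day 7 and reversed UUO and overlapped that of sham. Whether more such vessels were sampled at day 2 or more cells turned on these genes cannot be told apart. Because both subsets weigh on the sums, the main values below are also given without them, a choice made after the data had been seen.

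The share of capillary cells with a UMI of a gene was compared between libraries at equal depth. A cell without a UMI at that depth may still express the gene. Igfbp3 was found in 47.4% (34.0 to 61.0), 45.8% (32.7 to 59.2), 53.4% (46.1 to 60.7) and 30.7% (23.1 to 39.1) of cells, and in at most 1.59% of leukocytes. Aplnr was found in 7.02% (1.95 to 17.0), 6.78% (1.88 to 16.5), 24.3% (18.4 to 31.1) and 27.7% (20.4 to 36), and in at most 0.587% of leukocytes. The share of cells with an Aplnr UMI was thus higher in the 2 later libraries, whose intervals lie above those of sham and day 2. Without thinning, Aplnr was found in 47.6% of day 7 and 47.4% of reversed cells.

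**Figure D2:**
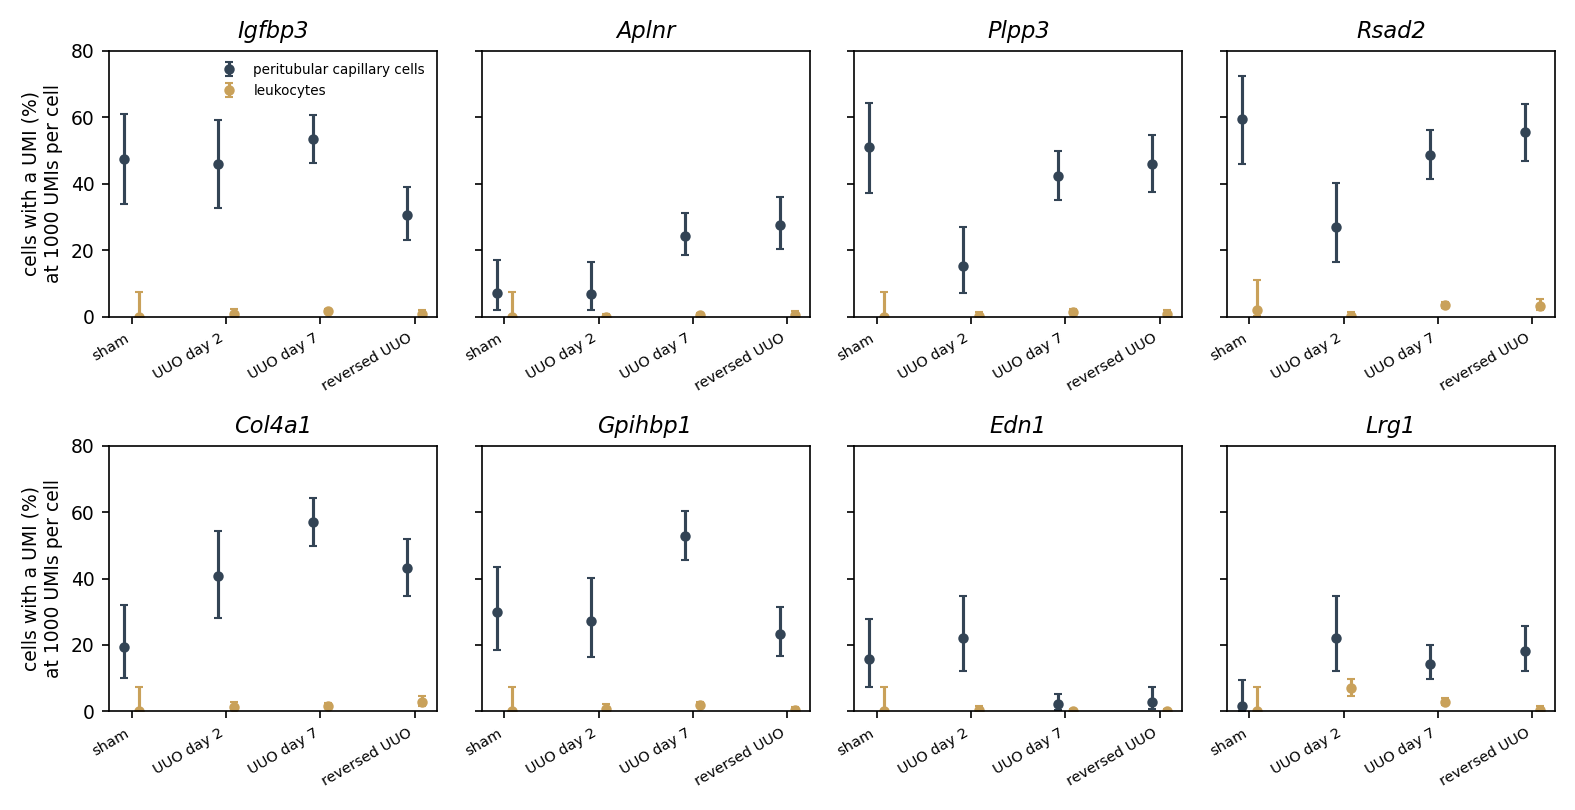
Percent of cells with at least 1 UMI of a gene after thinning to 1000 UMIs per cell, for peritubular capillary cells (dark) and leukocytes (light) in each library, with exact 95% intervals. Plpp3 and Rsad2 are lowest at day 2, Aplnr and Col4a1 are higher at day 7 than in sham, and the leukocyte values lie below those of the capillary cells in every panel and library.

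Glomerular endothelium, the filtering capillaries of the same kidneys, gave a comparison that can be tested, because both gates were sampled in all 4 libraries. The 695 Ehd3-positive cells were set against the 442 peritubular cells as sums per library, with library as a block. Of 7500 genes tested, 138 (1.84%) were higher and 166 (2.21%) lower in peritubular cells with edgeR's quasi-likelihood test at an adjusted p under 0.05. The markers Rgcc, Igfbp3 and Aplnr were all among the higher genes, and all 7 tested genes of a glomerular endothelial list were among the lower ones. These lists were drawn up with results of these data known.

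The glomerular genes showed the larger differences. Plat, tissue plasminogen activator, stood at 357, 364, 174 and 147 CPM in peritubular cells and at 2670, 2665, 1843 and 1383 CPM in glomerular cells. It was lower in 4 of 4 libraries, with a log2 fold of -3.03 (SE 0.14, edgeR adjusted p = 4.42e-08). Gata5, a transcription factor, was at 7.15, 0, 0 and 0 CPM against 129, 53.9, 53.2 and 45.4 (log2 fold -6.31, SE 0.54, edgeR adjusted p = 3.02e-05). Tbx3 (-2.66), Nostrin (-2.43), which binds endothelial nitric oxide synthase, and the BMP inhibitor Smad6 (-1.66) were lower as well. Nrp1, a co-receptor for VEGF and semaphorins, stood at 944, 302, 387 and 553 CPM against 2441, 1971, 1431 and 1500 (log2 fold -1.73, SE 0.17, edgeR adjusted p = 9.36e-05).

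Rgcc was higher in peritubular cells in 4 of 4 libraries, against 305, 166, 408 and 424 CPM in glomerular cells (log2 fold 1.22, SE 0.18, edgeR adjusted p = 0.00205). Igfbp3 differed by 0.92 (SE 0.17, edgeR adjusted p = 0.00896) and Aplnr by 0.99 (SE 0.19, edgeR adjusted p = 0.00998). The Aplnr call was lost without the day 7 library (edgeR adjusted p = 0.0775). Fbln2, an extracellular matrix protein, was at 78.6, 80.9, 99.9 and 67.0 CPM against 28.6, 35.2, 24.5 and 21.8 (log2 fold 1.75, SE 0.20, edgeR adjusted p = 0.000296). In both gates its levels lay within 2-fold of each other over the libraries. The growth factor gene Igf1 (1.41) and the transcription factor genes Sox17 (1.01) and Tcf15 (1.65) were also higher, and the Tcf15 call was lost without day 7 (edgeR adjusted p = 0.0691).

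Of 22 interferon response genes tested, 6 were higher in peritubular than in glomerular cells and none lower, with a list median log2 fold of 0.60 against 0.01 over all genes. They were Rsad2 (0.80, SE 0.12, edgeR adjusted p = 0.00248), an antiviral enzyme, the guanylate-binding protein genes Gbp2 (1.01) and Gbp3 (0.97), the transcription factor gene Irf7 (0.98), Ly6a (0.82) and Ifitm3 (0.47). The Ifitm3 call was lost when sham, day 7 or reversed was left out. Of 11 genes linked with cortical or medullary capillaries 2 were higher (Igf1, Fxyd6) and 3 lower (Igfbp5, Plpp3, Plpp1). The Fxyd6 call was lost without sham, day 7 or reversed and with DESeq2 (adjusted p = 0.102), and the Igfbp5 call with DESeq2 (adjusted p = 0.26). Plpp3, a lipid phosphate phosphatase, differed by -1.06 (SE 0.20, edgeR adjusted p = 0.00949).

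Some higher calls were lost in other settings. Aqp1, which was used to choose the vasa recta-like cells, was higher by 2.52 over all cells (edgeR adjusted p = 0.0131), and its value without them is no test. The Aqp1 call was lost without the sham library (edgeR adjusted p = 0.0538) and with DESeq2 (adjusted p = 0.0559). Cldn5, the main claudin of endothelial tight junctions, was higher by 1.33 (edgeR adjusted p = 0.00981), by 0.88 without vasa recta-like cells (edgeR adjusted p = 0.195) and by 0.97 without day 2 (edgeR adjusted p = 0.0626). Timp1 was higher by 2.96 (edgeR adjusted p = 0.000333) and by 0.77 without cells that carry another type's UMIs (edgeR adjusted p = 0.323).

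**Figure D3:**
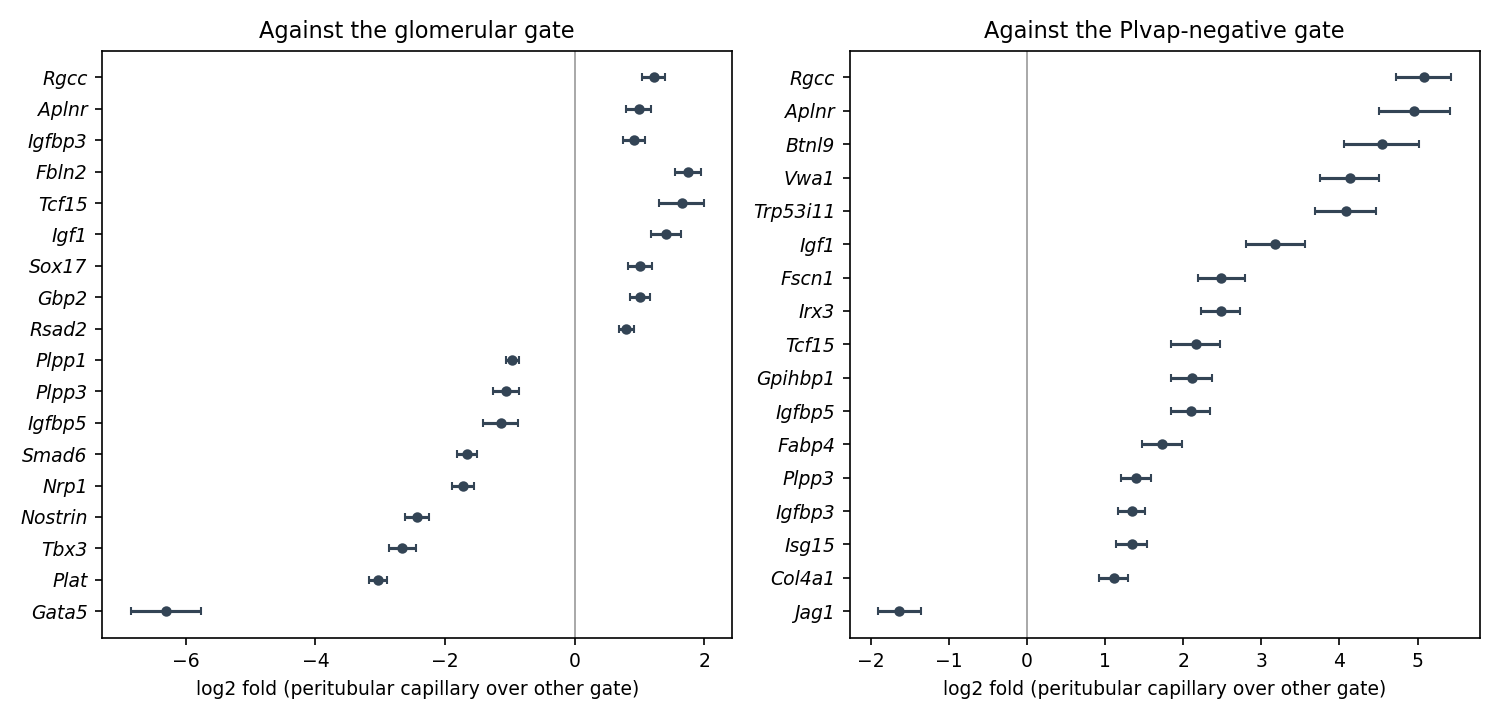
Log2 fold of named genes in peritubular capillary cells over glomerular cells (left) and over Plvap-negative endothelial cells (right), with SE, from edgeR sums of 4 libraries with library as a block. Rgcc, Aplnr and Igfbp3 lie to the right of 0 in both panels, and Plat, Tbx3 and Gata5 far to its left against glomerular cells.

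The second comparison set the same cells against 152 endothelial cells without Plvap and without Ehd3, which may hold other endothelium and capillary cells in which Plvap was missed; their shares were not tested. Of 4673 genes, 291 (6.23%) were higher and 284 (6.08%) lower in peritubular cells with edgeR. Rgcc stood at 0, 0, 13.2 and 48.1 CPM in that gate (log2 fold 5.08, SE 0.35, edgeR adjusted p = 2.60e-07), and Aplnr differed by 4.96 (SE 0.45, edgeR adjusted p = 6.10e-06). Btnl9 (4.54), Vwa1 (4.13), Trp53i11 (4.08) and Igf1 (3.18) were also higher in 4 of 4 libraries. Gpihbp1, which anchors lipoprotein lipase on capillary endothelium, was higher by 2.11 (SE 0.26, edgeR adjusted p = 7.98e-05), and the fatty acid carrier Fabp4 by 1.73 (SE 0.26, edgeR adjusted p = 0.000386).

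The Notch ligand Jag1 was lower in peritubular cells by 1.63 on the log2 scale in 4 of 4 libraries (SE 0.27, edgeR adjusted p = 0.000803). Of 20 interferon genes 17 were higher in peritubular cells, among them Isg15 (1.34, SE 0.20, edgeR adjusted p = 0.000340). All 11 tested proximal tubule genes were lower, so that the Plvap-negative gate carried more tubule UMIs. Without cells that carry another type's UMIs the counts were 103 higher and 63 lower of 2323 genes, and 7 of the 13 interferon calls that could still be tested passed. Of the 17 interferon calls 10 were left without the day 7 library and 8 without the reversed library. With a gate of 5 endothelial UMIs 5 of the 14 that could be tested passed, and with DESeq2 8 of 17. Isg15 was among those lost with that gate (edgeR adjusted p = 0.0552).

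Between the day 2 and the sham library, genes of the capillary list and part of the interferon list were lower at day 2, and Vim, Ctla2a and part of the arterial list were higher. Of 3593 genes compared, 198 (5.51%) were past 2-fold higher and 220 (6.12%) past 2-fold lower at day 2. Scaling moved this split: with TMM factors it was 282 higher and 168 lower, with DESeq2 size factors 261 and 173. TMM moved the median of all genes from -0.02 to 0.11, so that a log2 ratio of this comparison carries that uncertainty. Without both subsets, 148 genes were higher and 138 lower, of which 89 and 101 were shared with the counts over all cells. Genes entered with at least 20 UMIs over both libraries, so that a low gene could enter through the library where it was high, and more easily through the deeper one. Of the genes past 2-fold, 120 higher and 114 lower entered only through the library where they were high, as they would have missed the minimum with both libraries at the lower level. With an even minimum, for which the deeper library was scaled to the shallower, a choice made after seeing the data, 103 of 2506 genes (4.11%) were higher and 165 (6.58%) lower. A gene that is low in a library can still pass the even minimum through the other.

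Of 10 compared genes linked with cortical or medullary capillaries, 7 were past 2-fold lower and 1 higher, with a list median of -1.43 against -0.02 over all genes, and -1.24 without both subsets. Of the 7, Cd36, Cryab, Igf1 and Fxyd6 entered only through sham, where they were high. Igfbp5, a binding protein of insulin-like growth factors, stood at 1930, 372, 734 and 1164 CPM. Its ratio of day 2 to sham was -2.35 (-2.68 to -2.02), and -1.99 without both subsets. Day 2 was thus the lowest library and sham the highest. Plpp3, which degrades the lipid mediator lysophosphatidic acid outside the cell, stood at 815, 195, 599 and 652 CPM, a ratio of -2.01 (-2.49 to -1.54). At equal depth it was found in 50.9% (37.3 to 64.4) of sham and 15.3% (7.22 to 27) of day 2 cells.

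Npr3, the clearance receptor of natriuretic peptides, stood at 78.6, 7.36, 78.6 and 44.7 CPM. The fatty acid receptor Cd36 stood at 143, 25.8, 70.1 and 58.7 CPM, and Igf1 at 129, 40.5, 107 and 169 CPM. Tcf15, a transcription factor of fatty acid-handling endothelium, was at 172, 51.5, 118 and 69.8 CPM. Tcf15 was lowest at day 2. The day 2 level was also the lowest in Npr3, Cd36 and Igf1, but no such order is read from them. Npr3 missed the minimum for day 2 against sham and entered day 7 against day 2 only through day 7. Cd36 and Igf1 entered day 2 against sham only through sham. Esm1, Plpp1 and Fxyd6 of the capillary list were lowest in a later library. Of that list, 2 compared genes had a higher level at day 2 than in sham. One was Gpihbp1, at 386 and 695 CPM, and the other Igfbp7, a secreted protein of vessel walls, at 1301, 3782, 2342 and 2256 CPM (ratio of day 2 to sham 1.53, and 1.77 without both subsets). The large ratio of Cryab (-3.85) rested on 1 sham cell with most of its UMIs.

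**Figure D4:**
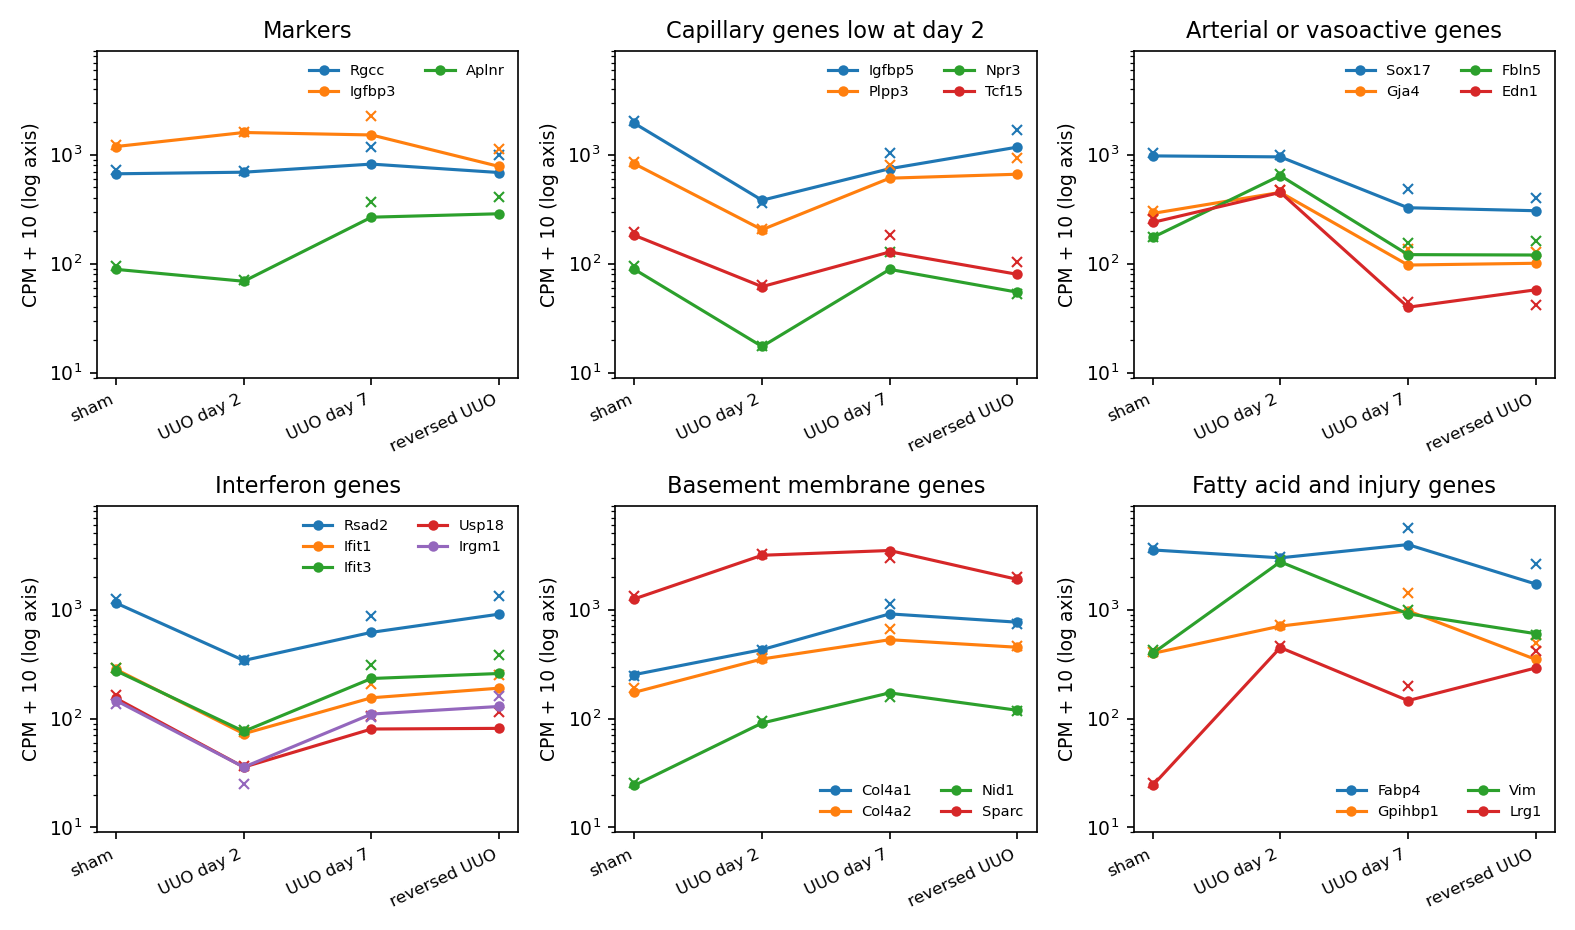
Levels of named genes in the 4 libraries, as CPM plus 10 on a log axis, in 6 panels. Lines join the values over all peritubular capillary cells, and crosses leave out cells that carry another cell type's UMIs. Igfbp5, Plpp3, Npr3 and Tcf15 are lowest at day 2, as are 5 interferon genes. For Npr3, Usp18 and Irgm1 this is a description only, as the minimum was missed or met only through a high library. Edn1, Gja4 and Fbln5 are highest at day 2.

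Higher at day 2 were Vim, the intermediate filament vimentin, at 386, 2733, 904 and 591 CPM (ratio 2.79, 2.40 to 3.21, and 1.89 without both subsets). Vim was found in 61.0% of day 2 cells at equal depth, but also in 51.1% of day 2 leukocytes against 22.9% in sham, and the part of free RNA was not tested. Lrg1, a secreted modulator of endothelial TGF-beta signalling, stood at 14.3, 438, 136 and 281 CPM (ratio 4.20, 2.83 to 5.27, and 3.54 without both subsets). It was found in 1.75%, 22%, 14.3% and 18.2% of capillary cells at equal depth, and in 6.91% of leukocytes at day 2. With both libraries at the sham level Lrg1 would have missed the minimum, so that it entered only through day 2. Its levels are a description only.

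Ctla2a, which codes for an inhibitor of cathepsins, stood at 350, 1718, 489 and 446 CPM and was high at day 2 alone (ratio 2.26, 1.84 to 2.70). Lower at day 2 were Tgfb2, a TGF-beta ligand, at 186, 25.8, 12.8 and 44.7 CPM (ratio -2.45), and Calca, the precursor of the vasodilator CGRP, at 372, 25.8, 7.44 and 33.5 CPM (ratio -3.42, and -2.98 without both subsets). Both entered the comparison of day 2 with sham only through sham, where they were high. Neither had regained its sham level in the reversed library.

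Of 10 arterial genes compared, 4 were past 2-fold higher and 1 lower at day 2, with a median of 0.72, and 0.45 without both subsets. Bmx and Cxcl12 entered only through day 2, and with the even minimum 2 of 7 were higher, with a median of 0.64. The elastic fibre gene Fbln5 stood at 164, 633, 111 and 110 CPM (ratio 1.88, and 1.59 without both subsets). The tight junction gene Cldn5 stood at 400, 1380, 220 and 305 CPM (ratio 1.76, 1.24 without vasa recta-like cells, 1.69 without cells carrying another type's UMIs, and 1.19 without both subsets). The vasa recta-like share was highest at day 2 (28.8%), and its part in the arterial values was not tested.

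The interferon response list was lower at day 2 than in sham in 16 of 19 compared genes, 7 of them past 2-fold and none higher past 2-fold. Irgm1 and Usp18 of these 7 entered only through sham. The list's median was -0.43 against -0.02 over all genes, -0.54 without both subsets, and -0.28 with TMM factors. The medians of the genes' own lower and upper bounds were -1.16 and 0.03, so that counting error alone left the typical gene of the list uncertain. Interferon response genes are switched on by type I and type II interferons through complexes of STAT and IRF proteins, and part of them is expressed without infection. Rsad2, which codes for the antiviral enzyme viperin, stood at 1137, 331, 608 and 898 CPM. Its ratio of day 2 to sham was -1.75 (-2.13 to -1.37), and -1.57 without both subsets. At equal depth Rsad2 was found in 59.6% (45.8 to 72.4), 27.1% (16.4 to 40.3), 48.7% (41.4 to 56.0) and 55.5% (46.7 to 64.0) of the capillary cells, against at most 3.40% of leukocytes.

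Ifit1 and Ifit3, which code for proteins that bind viral RNA or their partners, followed the same order of libraries. Ifit1 stood at 272, 62.5, 145 and 180 CPM, with ratios of -1.96 (-2.75 to -1.17) for day 2 to sham and 1.09 (0.44 to 1.78) for day 7 to day 2. Ifit3 stood at 264, 66.2, 223 and 249 CPM, with ratios of -1.85 (-2.63 to -1.07) and 1.61 (0.99 to 2.27). Usp18, the protease that removes ISG15 from proteins, stood at 143, 25.8, 70.1 and 71.2 CPM. Irgm1, an immunity-related GTPase, stood at 136, 25.8, 99.9 and 119 CPM, with ratios of -2.03 (-3.05 to -0.94) and 1.62 (0.75 to 2.48). The day 2 level of Usp18 and Irgm1 was their lowest, but both entered day 2 against sham only through sham, so that no order is read from them. In Rsad2, Ifit1 and Ifit3 day 2 was the lowest library, and both comparisons share that library. Other genes of the list did not follow this order. The abundant Ifitm3, at 3295, 4116, 3488 and 3168 CPM, and Ly6a, at 3417, 3749, 2664 and 2830 CPM, were highest at day 2. Ly6e was lowest at day 7, at 3331, 3035, 1969 and 1992 CPM, and Irf7 in the reversed library, at 293, 232, 342 and 230 CPM. Igtp, at 50, 51.5, 76.5 and 69.8 CPM, and Stat2, at 14.3, 33.1, 51.0 and 60.1 CPM, were lowest in sham.

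The promoters of the whole interferon list were read for the core of the interferon-stimulated response element, GAAA followed after any 2 bases by GAAA, on either strand. Promoters were taken from RefSeq (GRCm38.p6) as 250 bases before to 50 after the gene start, and 16 of the 22 list genes were found there, Usp18 not among them. Of these 16, 12 (75.0%) held the motif, against 1079 of 27025 genes (3.99%), 0 of 8 capillary genes, 1 of 9 arterial genes (11.1%) and 3 of 13 genes of class I antigen presentation (23.1%). The 4 promoters below belong to the interferon genes with the values above and are shown 5′ to 3′ in the direction of the gene with each match in capitals, which read TTTC where the motif lies on the other strand. They are Rsad2 at chr12:26456403-26456702 (minus strand), Ifit1 at chr19:34640639-34640938 and Ifit3 at chr19:34583279-34583578 (both plus strand), and Irgm1 at chr11:48871371-48871670 (minus strand).
Rsad2: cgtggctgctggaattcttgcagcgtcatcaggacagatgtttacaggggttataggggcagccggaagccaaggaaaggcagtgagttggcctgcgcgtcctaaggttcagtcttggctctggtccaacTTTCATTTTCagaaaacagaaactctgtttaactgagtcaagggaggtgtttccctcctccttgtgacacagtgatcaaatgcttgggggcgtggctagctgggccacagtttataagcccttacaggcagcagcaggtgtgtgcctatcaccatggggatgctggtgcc
Ifit1: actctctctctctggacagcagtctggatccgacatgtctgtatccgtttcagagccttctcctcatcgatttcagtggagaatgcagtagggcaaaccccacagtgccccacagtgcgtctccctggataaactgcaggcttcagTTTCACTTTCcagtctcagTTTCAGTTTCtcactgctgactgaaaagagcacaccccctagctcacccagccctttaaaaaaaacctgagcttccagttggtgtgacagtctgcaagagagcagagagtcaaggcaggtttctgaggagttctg
Ifit3: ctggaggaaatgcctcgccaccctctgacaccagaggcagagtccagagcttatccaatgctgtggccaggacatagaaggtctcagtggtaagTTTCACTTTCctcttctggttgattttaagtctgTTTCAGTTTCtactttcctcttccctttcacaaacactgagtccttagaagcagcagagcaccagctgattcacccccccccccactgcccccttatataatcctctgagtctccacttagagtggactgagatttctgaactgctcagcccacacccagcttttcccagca
Irgm1: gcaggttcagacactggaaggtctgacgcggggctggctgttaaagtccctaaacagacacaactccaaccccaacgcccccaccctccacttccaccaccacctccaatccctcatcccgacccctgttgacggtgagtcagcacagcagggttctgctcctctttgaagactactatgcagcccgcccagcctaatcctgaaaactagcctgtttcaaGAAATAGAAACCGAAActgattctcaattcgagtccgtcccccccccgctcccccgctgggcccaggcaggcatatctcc
Rsad2 holds 1 match and the other 3 genes hold 2 matches each, which overlap in Irgm1. A match describes the letters of the promoter and not a bound site. The motif was also held by Ifitm3 (2 matches), Stat2 and Igtp (1 match each), which were not lowest at day 2. Ifit2, Irf7, Irf1 and Rnf213 held none in this window.

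Between day 7 and day 2, part of the capillary and interferon lists was higher at day 7 and most of the arterial list was lower. Of 7506 genes compared, 618 (8.23%) were past 2-fold higher and 180 (2.40%) past 2-fold lower at day 7. Without both subsets the counts were 403 and 177, of which 211 and 76 were shared with those over all cells. Of the higher genes 411 entered only through day 7, and with the even minimum 250 of 4429 genes (5.64%) were higher and 146 (3.30%) lower. Some of the largest values came from a few barcodes. Col3a1 stood at 0, 0, 1395 and 140 CPM, of which 757 UMIs at day 7 lay in 1 cell, and at 34.1 CPM at day 7 without cells carrying another type's UMIs. Timp1 stood at 0, 136, 837 and 226 CPM and at 39.0 CPM at day 7 without those cells, which turns its ratio of day 7 to day 2 from higher to -1.59. Summed fibroblast and mural markers stood at no more than 51.5 CPM in sham and at day 2, at 3848 CPM at day 7 and at 1186 CPM after reversal in the capillary cells, with 7, 5, 0 and 0 of 10 genes at 0.

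Of 22 interferon genes compared, 19 were higher at day 7 than at day 2, 8 of them past 2-fold and none lower past 2-fold. The list median was 0.75 against 0.09 over all genes, and 1.00 without both subsets. Of 11 capillary genes, 5 were past 2-fold higher and none lower, with a median of 0.96, and 0.44 without both subsets. The ratio of Plpp3 was 1.57 (1.18 to 1.98) and that of Npr3, which entered only through day 7, 2.35 (1.22 to 3.05). The ratio of the marker Aplnr was 1.96 (1.31 to 2.64), and 1.84 without both subsets.

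Of 10 arterial genes compared, 8 were past 2-fold lower at day 7 and none higher, with a list median of -1.63. Without both subsets the median was -1.83 with 7 genes past 2-fold lower. Gja4, a gap junction protein of arteries, stood at 279, 441, 87.1 and 90.8 CPM (ratio -2.22, -2.61 to -1.83, and -2.29 without both subsets). Its relative Gja5 stood at 57.2, 166, 9.56 and 25.1 CPM (ratio -3.17), and the kinase gene Bmx at 21.4, 84.6, 6.38 and 15.4 CPM (ratio -2.53). Both of these entered only through day 2. Sox17, which sustains arterial identity, stood at 965, 945, 316 and 296 CPM (ratio -1.55, and -0.90 without both subsets). The levels of Gja4 and Sox17 were lower in the 2 later libraries than in sham and day 2. No such order is read from Gja5 and Bmx.

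Edn1, the vasoconstrictor endothelin-1, had one of the largest ratios. It stood at 229, 441, 29.8 and 47.5 CPM, and its ratio of day 7 to day 2 was -3.51 (-3.99 to -3.01), and -3.21 without both subsets. At equal depth Edn1 was found in 15.8%, 22%, 2.12% and 2.92% of cells, against at most 0.494% of leukocytes. Of 11 flow and vasoactive genes, 3 were past 2-fold lower at day 7: Edn1, the nitric oxide synthase gene Nos3 at 92.9, 99.3, 43.6 and 75.4 CPM, and the flow-responsive transcription factor gene Klf2 at 1866, 1872, 828 and 1400 CPM. The ratio of Klf2 was -1.17 (-1.33 to -1.01), and -0.78 without both subsets. The list median was -0.34, and -0.20 with 2 genes past 2-fold lower without both subsets. Its direction was not the same in every setting, and its median was 0.05 with 1 gene higher and 1 lower without cells carrying another type's UMIs alone, and 0.32 after subtraction of a free-RNA profile. That profile was the sum over all deposited barcodes of a library, cells included, and not over empty droplets. Its scale took all proximal tubule UMIs of the capillary cells as free RNA.

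Of 14 basement membrane genes compared, 3 were past 2-fold higher at day 7 and 1 lower, with a median of 0.31, and Lamb1 among the higher genes entered only through day 7. Without both subsets 0 were higher and 2 lower, with a median of 0.01. Col4a1, the main collagen of the capillary basement membrane with Col4a2, stood at 243, 419, 903 and 756 CPM. Its ratio of day 7 to day 2 was 1.09 (0.81 to 1.38), and 0.95 without both subsets. It was found in 19.3% (10.0 to 31.9), 40.7% (28.1 to 54.3), 57.1% (49.8 to 64.3) and 43.1% (34.6 to 51.8) of cells at equal depth, against at most 2.74% of leukocytes. Col4a2 stood at 164, 342, 519 and 441 CPM, the nidogen gene Nid1 at 14.3, 80.9, 162 and 109 CPM, and the collagen-binding protein gene Sparc at 1244, 3142, 3475 and 1883 CPM. Col4a1, Col4a2 and Sparc were lowest in sham and highest at day 7, except that without cells carrying another type's UMIs Sparc was higher at day 2 (3234 CPM) than at day 7 (2961 CPM). No such order is read from Nid1, which entered its comparisons with sham only through the other library.

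**Figure D5:**
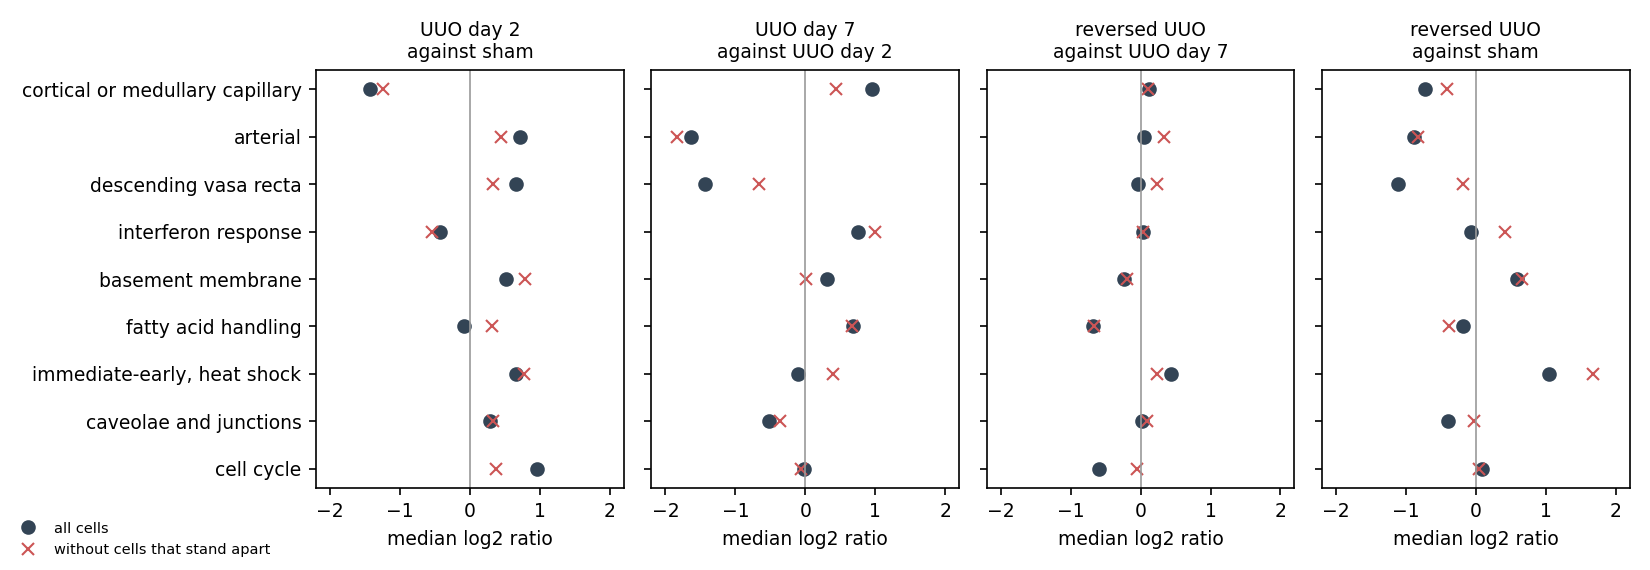
Median log2 ratio of 9 gene lists in the 4 comparisons between libraries, for all peritubular capillary cells (dots) and without both subsets that stand apart (crosses). Interferon and capillary medians lie left of 0 for day 2 against sham and right of 0 for day 7 against day 2, and the arterial median lies right and then left.

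The comparison of the reversed with the day 7 library gave the smallest shares past 2-fold of the 4 comparisons. It is also the comparison of the 2 deepest sums (715914 and 941125 UMIs), where counting error is smallest. The rank of its shares is therefore not read as a smaller difference. Of 8802 genes compared, 95 (1.08%) were past 2-fold higher and 131 (1.49%) lower after reversal. Without both subsets the counts were 84 and 80, with only 17 and 36 shared with those over all cells. Of 22 interferon genes, 0 were past 2-fold in either direction, and the median was 0.04, as over all genes. Basement membrane genes likewise had 0 of 14 past 2-fold, with a median of -0.24. Without cells carrying another type's UMIs 2 were past 2-fold lower, with a median of -0.47. Without both subsets 0 were past 2-fold, with a median of -0.20.

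Of 9 fatty acid-handling genes, 4 (Fabp4, Fabp5, Gpihbp1, Lpl) were past 2-fold lower after reversal and none past 2-fold higher. In level 7 were lower and 2 higher, with a median of -0.68. Without both subsets 2 were past 2-fold lower, with a median of -0.66. Gpihbp1 stood at 386, 695, 964 and 339 CPM (ratio -1.48, -1.68 to -1.28, and -1.61 without both subsets). It was found in 29.8%, 27.1%, 52.9% and 23.4% of cells at equal depth, so that day 7 stood above the other libraries. Fabp4 stood at 3517, 2976, 3940 and 1708 CPM (ratio -1.20, -1.29 to -1.11, and -1.17 without both subsets). Of the capillary genes, Esm1, an endothelial proteoglycan of sprouting vessels, stood at 865, 320, 483 and 217 CPM (ratio -1.12, and -1.24 without both subsets). The marker Igfbp3 had a ratio of -0.96 (-1.10 to -0.82), just inside 2-fold, and -1.09 without both subsets.

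Higher after reversal were Slco2a1, Eln and Fos. Slco2a1, the prostaglandin transporter, stood at 64.3, 69.9, 43.6 and 145 CPM (ratio 1.54, 1.07 to 2.00, and 1.43 without both subsets). Eln, elastin, stood at 172, 118, 37.2 and 163 CPM (ratio 1.88, 1.41 to 2.35, and 1.29 without both subsets). Fos, an immediate-early transcription factor gene that tissue digestion can also switch on, stood at 207, 287, 336 and 696 CPM (ratio 1.03, 0.83 to 1.23, and 0.89 without both subsets). Of 16 immediate-early and heat shock genes 14 were higher, 1 of them past 2-fold, with a median of 0.44, and 0.23 without both subsets.

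A last comparison set the reversed library against sham, to see what still differed 7 days after release. Of 6487 genes compared, 698 (10.8%) were past 2-fold higher and 213 (3.28%) past 2-fold lower. Without both subsets the counts were 422 and 148, of which 281 and 88 were shared with those over all cells. These counts depended on the depth of the libraries: 556 of the higher and 54 of the lower genes entered only through the library where they were high. With the even minimum 119 of 2627 genes (4.53%) were higher and 99 (3.77%) lower, so that the surplus of higher genes went with the minimum and is not read as a difference. The interferon list had a median of -0.07, with 2 of 22 past 2-fold higher (Ifit2, and Stat2, which entered only through the reversed library) and none lower, and a median of 0.41 without both subsets. The level of Rsad2, Ifit3 and Irgm1 in the reversed library lay within 2-fold of sham.

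Of 13 basement membrane genes, 6 were past 2-fold higher than in sham and none lower, with a median of 0.59. Without both subsets 6 were higher and 1 lower, with a median of 0.66. Lama4, Lamb1 and Nid1 of the 6 entered only through the reversed library, and with the even minimum 3 of 9 were higher (Col4a1, Col4a2, Col15a1), with a median of 0.13. The ratio of Col4a1 was 1.60 (1.11 to 2.12), that of Col4a2 1.37 (0.79 to 2.00), and that of Nid1 2.29 (0.90 to 3.37). Aplnr differed by 1.69 (0.90 to 2.57), and by 1.99 without both subsets. Lrg1 differed by 3.58 (2.22 to 4.64). Col4a1, Col4a2 and Aplnr therefore had not come back to the sham level in this library. Nid1 entered only through the reversed library, and Lrg1 would have missed the minimum at its sham level. No such reading is made for these 2 genes.

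Of 8 arterial genes compared with sham, 3 were past 2-fold lower and none higher, and all 8 ratios were under 0, with a median of -0.88. The medians of the genes' own lower and upper bounds were -1.87 and 0.16, which span the median over all genes (0.04). Of 11 flow and vasoactive genes, Edn1 alone was past 2-fold lower, with a list median of -0.46, and -0.14 without cells carrying another type's UMIs. Edn1 differed by -2.05 (-2.70 to -1.38), and by -2.47 without both subsets. Gja4 differed by -1.52, and by -1.19 without both subsets. Esm1 differed by -1.95 (-2.29 to -1.60), and by -1.61 without both subsets. Calca and Tgfb2 differed by -3.13 and -1.84. Of 11 capillary genes, 3 were past 2-fold lower (Cd36, Cryab, Esm1), and Igfbp5 and Plpp3 were not among them. In level 9 of the 11 were lower and 2 higher, with a median of -0.73 against 0.04 over all genes, and -0.41 without both subsets.

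Of 7 venous genes listed, 5 were compared with sham, and Nr2f2, Vcam1, Bgn and Selp were past 2-fold higher. Selp entered only through the reversed library and supports no count. With the even minimum the other 3 of 4 were higher. Nr2f2, the transcription factor of venous identity, stood at 42.9, 36.8, 122 and 170 CPM (ratio 1.77, 0.76 to 2.84, and 1.47 without both subsets). Vcam1, an adhesion molecule for leukocytes, stood at 85.8, 349, 217 and 233 CPM (ratio 1.34, and 2.23 without both subsets). Selp, the adhesion receptor P-selectin, was seen in 0, 0, 6 and 13 cells, at 0, 0, 14.9 and 67.0 CPM. A count of 0 allows up to 21.4 CPM in sham and 11 CPM at day 2. The E-selectin gene Sele, which also entered only through the reversed library, stood at 0, 0, 3.19 and 29.3 CPM. No conclusion is drawn from either selectin.

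Immediate-early and heat shock genes had 8 of 16 past 2-fold higher than in sham and none lower, with a median of 1.05, and 1.68 without both subsets. Atf3 and Nr4a1 entered only through the reversed library, and with the even minimum 6 of 12 were higher. Fos differed by 1.70 (1.18 to 2.26), Jun by 1.43 and Egr1 by 2.14. At equal depth Fos was found in 5.26%, 16.9%, 13.8% and 24.8% of capillary cells, and in 12.5%, 26.4%, 24.2% and 28.0% of leukocytes, so that both cell types were lowest in the sham library. Handling of the tissue and time of surgery cannot be told apart here.

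For other lists, levels outside the capillary cells or in the mixed barcodes changed alongside, and their part was not tested. Of 6 class II antigen presentation genes, 6 were past 2-fold higher at day 7 than at day 2, with a median of 3.31. Cd74, the class II chaperone, was found at equal depth in 7.02%, 23.7%, 88.9% and 61.3% of capillary cells and in 64.6%, 71.4%, 97.3% and 86.1% of leukocytes. After subtraction of the free-RNA profile the class II median was 0.00. That profile holds the UMIs of leukocytes and endothelium themselves, so that this value cannot separate free RNA from the cells' own. Within libraries, 3 of 6 class II genes tested were higher in peritubular than in glomerular cells and none lower, with a median log2 fold of 0.57 against 0.01 over all genes. They were Cd74 (0.64, SE 0.14, edgeR adjusted p = 0.0219), H2-Ab1 (0.57) and H2-Aa (0.58), each higher in 4 of 4 libraries. All 3 calls were lost without cells that carry another type's UMIs, where the folds of Cd74, H2-Ab1 and H2-Aa were 0.35, 0.31 and 0.25 (edgeR adjusted p = 0.148, 0.201 and 0.347). They were also lost without the sham library (edgeR adjusted p = 0.0792, 0.126 and 0.0693) and without the reversed library (edgeR adjusted p = 0.134, 0.191 and 0.282), and the H2-Aa call without day 7 (edgeR adjusted p = 0.0621). Phagocyte markers summed to 536, 1056, 5636 and 2641 CPM in the capillary cells, with 6, 0, 0 and 0 of 10 genes at 0. The 8 mesenchymal genes past 2-fold higher in reversed UUO than in sham all entered only through the reversed library, so that their count is fixed by the minimum. With the even minimum 5 of 9 were higher, with a median of 3.35, but all 5 are among these 8. The even minimum thus did not remove this limit, and no count or median is read from it here. Over the 13 genes compared the median was 3.16. Without cells carrying another type's UMIs it was 0.48, with 4 genes past 2-fold higher.

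Proximal tubule markers stood at 10708, 2417, 2207 and 4598 CPM in the capillary cells, and injured tubule markers at 386, 5272, 11286 and 8374 CPM, with 3, 1, 0 and 1 of 8 genes at 0. The cell cycle genes past 2-fold higher at day 2 than in sham (Pcna, Mcm3, Hmgb2) entered only through day 2, so that no count is read from them. Pcna stood at 28.6, 110, 68.0 and 41.9 CPM and Hmgb2 at 42.9, 132, 111 and 106 CPM. The proliferation marker Mki67 had a UMI at equal depth in 0%, 1.69%, 0.529% and 0% of cells. These are shares of cells with a UMI at that depth, not of cells that express it. Between the reversed library and day 7, of 11 cell cycle genes compared 4 were past 2-fold lower after reversal, and 0 without cells that carry another type's UMIs. Top2a, Ccnb2 and Birc5 of the 4 entered only through day 7. Of 14 caveolae and junction genes, 12 were lower at day 7 than at day 2, with a median of -0.52, and Cldn5 and Esam alone were past 2-fold. That median was -0.14 with 1 gene past 2-fold lower without cells carrying another type's UMIs, and 0.12 after free-RNA subtraction. Angpt2, a destabilising ligand of the Tie2 receptor, stood at 14.3, 95.6, 13.8 and 12.6 CPM, and the day 2 value came from 6 cells. It entered the comparisons of day 2 with sham and with day 7 only through day 2, so that its levels are a description only.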

How the data were processed

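For 4 droplet libraries (3′ chemistry, version 2, per the labels' protocols) the authors deposited matrices of raw UMI counts. The submitters' processing notes name Cell Ranger, STAR, GRCm38 and mm10, without versions. The full-length plate sample mixed all time points and was not used. Members and gene lists were chosen with earlier results of these data known.

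UMIs were summed per library and gate. Ratios between libraries used CPM plus 10, for genes with at least 20 UMIs over both libraries, without mitochondrial genes. Intervals are exact conditional binomial or Clopper-Pearson. Gates were compared with edgeR 4.0.16 (R 4.3.3; TMM, filterByExpr, quasi-likelihood test, Benjamini-Hochberg over all tested genes, library as a block). Gate genes stayed in that fit and its adjustment and were left out of counts and results. Both gates of a library come from the same pooled mice, which gives the pairing. P-values measure how the difference between gates varies over these 4 libraries, which are 4 conditions. They do not measure the spread between replicate pools or mice of a condition. Leukocytes, used as the free-RNA background, had at least 2 Ptprc UMIs and none of the endothelial genes. DESeq2 1.42.0, scanpy 1.11.5, Python 3.11.15, numpy 2.4.6 and scipy 1.17.1 were also used. The scripts were tested on simulated data.

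Named genes are those of the lists, the 10 largest and smallest ratios per comparison among genes enriched in the capillary cells at 50 CPM or more, and the 10 largest calls per direction of each edgeR comparison. One of the genes named by the rule is not reported here.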

Additional observations from a re-analysis of the deposited data

How the results depend on the processing

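Limits: each time point is 1 library of pooled mice, intervals cover counting error, and the sham and day 2 sums are the shallowest. Of the values between libraries, 2017 of 2240 gene ratios and 613 of 640 list medians moved by less than their interval (for a list, the medians of its genes' bounds) under the alternatives other than those added later, and 3 of those past 2-fold changed sign. Those were the class II list (0.61 in the day 7 comparison of the reversed library and -0.62 in its sham comparison) and Cd74 (-3.56 for reversed against sham), with a free-RNA profile subtracted. Among these 640 medians, past 2-fold or not, 13 changed sign beyond their interval, each under that subtraction. They include class II at day 2 against sham (0.38 to -2.18) and, at day 7 against day 2, the vasoactive (-0.34 to 0.32) and the caveolae and junction list (-0.52 to 0.12). Under the alternatives chosen after seeing the data, the ratio of Timp1 at day 7 to day 2 turned to -1.59 without cells that carry another cell type's UMIs and to -1.98 without both subsets. Col3a1 against Plvap-negative cells turned to -1.97 with a gate of 5 endothelial UMIs (edgeR adjusted p = 0.07). The cause was not tested.

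The share of kept cells moved with a mitochondrial limit of 20% to 8.18% in sham, 3.70% at day 2 and 6.37% after reversal, and with a gate set after thinning to 1.59% at day 2. Without vasa recta-like cells the day 2 share was 1.92% of kept and 28.2% of endothelial cells. The reversed share was 3.49% with 2 Plvap UMIs required and 3.49% without mixed cells. Of endothelial cells it was 28.2% with 2 Plvap UMIs and 43.1% after thinning, and the day 7 share was 44.0% after thinning. Without thinning, Aplnr was found in 47.6% (day 7) and 47.4% (reversed) of cells, Igfbp3 in 67.8%, 76.2% and 48.9% (day 2, day 7, reversed), and Rgcc in 74.6% and 69.3% (day 7, reversed).

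Counts past 2-fold depended on the pseudocount and the minimum. With no minimum of UMIs, day 2 against sham gave 1032 higher and 1125 lower, day 7 against day 2 gave 289 lower, and reversed against sham gave 1326 and 533. A pseudocount of 1 CPM gave 1008 higher and 312 lower at day 7 than at day 2, 304 and 306 after reversal than at day 7, and 323 lower than in sham. Free-RNA subtraction gave 997 and 656 at day 7 compared with day 2, and 852 and 317 after reversal compared with day 7. A gate of 5 gave 79 lower for reversed against day 7. With the minimum set at the depth of the shallower library, 103 were higher at day 2 than in sham, 250 higher at day 7 than at day 2, and 119 higher and 99 lower after reversal than in sham. Without both subsets, 138 were lower at day 2 than in sham, 403 higher at day 7 than at day 2, 80 lower after reversal than at day 7, and 422 higher than in sham; without mixed cells alone the last was 408.

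No paired analysis was possible between time points because each is 1 library. Between gates the replicate block, library, pairs the sums. Without it the counts fell to 3 higher and 45 lower against glomerular cells and to 58 and 15 against Plvap-negative cells. DESeq2 in place of edgeR gave 71 and 89, and 129 and 103. With no filter they were 267 and 287 against glomerular cells, and 479 higher against Plvap-negative cells. Leaving out 1 library gave 90 to 109 higher and 102 to 135 lower against glomerular cells, fewest without day 7, and 145 to 321 higher and 107 to 258 lower against Plvap-negative cells, fewest without the reversed library. Against Plvap-negative cells a gate of 5 gave 50 and 43, a limit of 20% gave 128 lower, and leaving out mixed cells gave 103 and 63. Against glomerular cells leaving out mixed cells gave 223 higher.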
